A study of Homo sapiens with 39 samples.

Results

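The 9 genes described here, HLA-B, HLA-C, HLA-E, B2M, NLRC5, TAP1, TAP2, PSMB8 and PSMB9, make and load the MHC class I molecules with which a cell shows pieces of its own proteins to T cells. They were chosen by name, as the rows of the deposited count table whose Ensembl identifiers carry these symbols, and all 9 were found among the 15808 genes of the table. All 9 also passed the filter on low counts and stood among the 12814 genes tested. RNA had been sequenced from 4 lines of human B cell lymphoma. DOHH2 and Toledo are known as germinal centre lines, TMD8 and OCILy10 as activated B cell lines. Each line had been kept for 6 h with NEO2734 (an inhibitor of both the BET and the CBP/p300 bromodomains), with OTX015 (an inhibitor of the BET bromodomains alone) or with the vehicle DMSO. The time and compounds are those of each sample's own labels. A treatment text that all samples share instead names vorinostat and pracinostat and adds a time of 14 days, and no sample is labelled with these. OCILy10 had also been given CB103, an inhibitor of the Notch transcription complex. Each of these 13 groups held 3 libraries, 39 in all, and a line, grown from the tumour of 1 person, stands for that tumour alone. Doses are not in the labels, and the labels do not say whether replicates were separate cultures, so p-values measure the spread between these libraries.

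A class I molecule consists of a heavy chain, such as HLA-B, HLA-C or HLA-E, bound to the small invariant chain that B2M encodes. PSMB8 and PSMB9 encode catalytic subunits of the immunoproteasome, which cuts proteins into peptides suited to class I, and TAP1 and TAP2 form the transporter that carries these peptides into the endoplasmic reticulum. NLRC5 is the transactivator of this gene set: it does not bind these promoters by itself but joins the RFX, CREB and NF-Y factors that sit on them. B cell lymphomas often lose class I molecules from their surface.

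The libraries differed in depth, and 3 did not hold their own line alone. Total counts ran between 1000281 and 11668542, in 15 deep libraries of at least 6670250 counts and 24 shallow ones of at most 3420458. With lists of genes private to 1 line, the library labelled Toledo DMSO replicate 2 held the 70 genes of OCILy10 at 87.0% of their level in OCILy10, the library labelled OCILy10 CB103 replicate 2 held the 32 genes of Toledo at 30.9%, and the library labelled DOHH2 NEO2734 replicate 3 held the genes of OCILy10 at 8.8%. In the other libraries such genes of another line stood at 2.13% or less, and values without these 3 libraries are given below beside the results they move most. All 9 B cell markers were in the table, and their summed level was 1180 to 5060 CPM (counts scaled to the size of the library) over the groups. The 6 markers of the activated type summed to 1010 to 1610 CPM in DOHH2, 2390 to 3490 CPM in OCILy10, 2130 to 3440 CPM in TMD8 and 679 to 1800 CPM in Toledo with DMSO. The 6 markers of the germinal centre type summed to 42.7 to 97.8 CPM in DOHH2, 65.3 to 79.2 CPM in OCILy10, 77.6 to 105 CPM in TMD8 and 129 to 552 CPM in Toledo with DMSO, so DOHH2 did not stand above the activated lines in them. Of 9 T cell markers 3 were in the table, and CD3D, CD3E, CD3G, CD8A, CD8B and CD28 were not among them. The summed level of the 3, mostly TRAC, was 2.85 to 6.53 CPM in OCILy10 with NEO2734, 4.31 to 8.88 CPM with OTX015, 27.4 to 58.2 CPM with CB103 and 32.6 to 80.4 CPM with DMSO. It was at most 5.33 CPM in DOHH2, 1.11 CPM in TMD8 and 0.824 CPM in Toledo with NEO2734 or OTX015. In Toledo with DMSO, the group of the library that held the OCILy10 genes, it was 0 to 39.9 CPM. None of the 4 NK cell markers was in the table, and 3 of 8 monocyte markers summed to at most 6.09 CPM. HEXIM1, a gene known to rise when BET proteins are inhibited, rose 4.29-fold with NEO2734 (adjusted p = 2.67e-07, edgeR quasi-likelihood test) and 3.61-fold with OTX015 (adjusted p = 8.12e-06), averaged over the 4 lines.

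Promoter sequences were matched in RefSeq (GRCh38.p14) for 7 of the 9 genes, all but HLA-E and NLRC5. They are shown for the genes whose levels are compared most below, as the 250 bases before the start in the direction of transcription. Capitals mark 5 motifs on either strand, overlapping matches included: the interferon response element (GAAA, any 2 bases, GAAA), its class I form GAAGTGAAA, the NF-kB type site (GGGA, any base, T, any 2 bases, CC), the X2 type site TGACG, where CREB family factors bind, and the Y type site CCAAT, where NF-Y binds.
HLA-B (minus strand, chr6:31357180-31357429): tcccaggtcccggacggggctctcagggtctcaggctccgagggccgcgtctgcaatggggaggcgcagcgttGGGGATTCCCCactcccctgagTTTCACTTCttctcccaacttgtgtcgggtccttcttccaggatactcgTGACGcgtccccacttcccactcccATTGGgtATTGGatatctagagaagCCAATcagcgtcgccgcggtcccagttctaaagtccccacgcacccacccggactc
HLA-C (minus strand, chr6:31272093-31272342): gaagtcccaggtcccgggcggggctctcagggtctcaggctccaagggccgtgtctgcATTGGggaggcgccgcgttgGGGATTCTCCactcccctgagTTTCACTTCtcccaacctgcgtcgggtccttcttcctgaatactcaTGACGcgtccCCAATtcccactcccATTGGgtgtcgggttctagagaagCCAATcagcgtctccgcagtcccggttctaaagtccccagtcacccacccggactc
B2M (plus strand, chr15:44711267-44711516): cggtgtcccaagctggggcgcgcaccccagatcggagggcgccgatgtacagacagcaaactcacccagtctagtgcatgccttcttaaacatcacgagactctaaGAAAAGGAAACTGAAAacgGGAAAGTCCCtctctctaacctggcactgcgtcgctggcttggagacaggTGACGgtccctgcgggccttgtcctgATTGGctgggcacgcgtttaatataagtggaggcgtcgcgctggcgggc
TAP1 (minus strand, chr6:32853705-32853954): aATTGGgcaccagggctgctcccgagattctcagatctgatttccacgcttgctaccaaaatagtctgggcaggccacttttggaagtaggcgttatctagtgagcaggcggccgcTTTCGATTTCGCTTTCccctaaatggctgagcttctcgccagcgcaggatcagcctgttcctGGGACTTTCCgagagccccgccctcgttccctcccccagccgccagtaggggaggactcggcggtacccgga
PSMB9 (plus strand, chr6:32853942-32854191): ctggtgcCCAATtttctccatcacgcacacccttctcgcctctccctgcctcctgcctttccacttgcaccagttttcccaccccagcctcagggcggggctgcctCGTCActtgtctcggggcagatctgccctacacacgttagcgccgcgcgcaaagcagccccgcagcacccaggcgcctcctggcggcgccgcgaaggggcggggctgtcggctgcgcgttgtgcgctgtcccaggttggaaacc

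HLA-B and HLA-C held the same arrangement towards the start, an NF-kB type site, the class I interferon element, a TGACG and then CCAAT matches, and HLA-C held a further CCAAT upstream of these. Of all 35116 RefSeq promoter windows of this length, 0.439% hold GAAGTGAAA, 3.02% hold the interferon response element, 4.46% hold the NF-kB type site, 21.2% hold TGACG and 32% hold CCAAT. B2M and the TAP1 window printed each held a pair of overlapping interferon response elements together with an NF-kB type site and a CCAAT. The TAP1 and PSMB9 starts lie 488 bases apart and point away from each other, so the windows printed for them share 13 bases. TAP2 held an interferon response element and TGACG, and of the 2 windows of PSMB8 1 held TGACG and the other none of the 5 motifs. A further window of TAP1, chr6:32852762-32853011, also held none of the 5. These are matches of letters, and no binding was measured.

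In the genome annotation (GRCh38, GENCODE 29) all members but B2M and NLRC5 lie in the MHC on chromosome 6. HLA-E spans 30489467 to 30494205, HLA-C 31268749 to 31272130 and HLA-B 31269491 to 31357188. TAP2 spans 32821833 to 32838780, PSMB8 32840717 to 32844703, TAP1 32845209 to 32853978 and PSMB9 32844136 to 32859585, so the last 4 lie next to each other. B2M lies on chromosome 15 (44711487 to 44718877) and NLRC5 on chromosome 16 (56989485 to 57083531). The sources used here do not say whether counting used strand. The exons of PSMB8-AS1 overlap those of PSMB8 by 618 bases and those of TAP1 by 456 bases, the exons of PSMB8 and PSMB9 share 139 bases, and an antisense pseudogene overlaps HLA-B by 542 exon bases. TAP2 shares 2064 exon bases with AL669918.1, annotated as protein coding on the same strand and absent from the count table. How reads in these shared bases were counted is not known. Class I heavy chain genes are near-identical copies of one another and differ in sequence between people, so their levels in different lines depend on how reads were assigned.

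In cells given DMSO alone, called untreated here, DOHH2 had the highest levels of the classical heavy chains and OCILy10 the lowest, by a wide margin. HLA-B, which presents peptides to CD8 T cells, stood at 1741, 1807 and 2202 CPM in DOHH2, at 382, 395 and 470 CPM in TMD8, at 267, 160 and 310 CPM in Toledo and at 46.7, 53.7 and 40.7 CPM in OCILy10. The DOHH2 mean was 40.8 times the OCILy10 mean. HLA-C, a classical chain that is also read by NK cell receptors, averaged 839 ± 120 CPM in DOHH2, 239 ± 75.6 CPM in TMD8, 78.5 ± 12.8 CPM in Toledo and 20.2 ± 2.22 CPM in OCILy10 (SD, n = 3 libraries each). HLA-E, a chain of little variation that holds leader peptides of other class I chains, did not follow this order: it averaged 285 ± 23.8 CPM in OCILy10 and 265 ± 21.9 CPM in DOHH2, against 151 ± 47.9 CPM in TMD8 and 151 ± 92.3 CPM in Toledo (SD, n = 3 each). Without the library labelled Toledo DMSO replicate 2 the Toledo mean of HLA-E was 98.6 CPM (n = 2). B2M averaged 3150 ± 625 CPM in DOHH2, 1570 ± 454 CPM in OCILy10, 1170 ± 246 CPM in TMD8 and 828 ± 229 CPM in Toledo (SD, n = 3 each). OCILy10 thus had the lowest classical chains beside the second highest mean of B2M. Its B2M libraries overlapped those of TMD8, and B2M was not called in that pair by edgeR. NLRC5 averaged 76.3 ± 29.4 CPM in OCILy10, 62.3 ± 23.5 CPM in DOHH2, 39.3 ± 11.8 CPM in TMD8 and 32.8 ± 36.1 CPM in Toledo (SD, n = 3 each), and it was called in no pair of lines by edgeR over all libraries (adjusted p = 0.24 for OCILy10 against TMD8). Without the library labelled Toledo DMSO replicate 2 the Toledo mean of NLRC5 was 12.0 CPM (n = 2). NLRC5 was called in TMD8 against Toledo without the 2 or the 3 libraries that hold another line's genes, and in DOHH2 against Toledo with limma-voom. In OCILy10 against Toledo, with single libraries left out in turn, the count of members called by edgeR reached 9. NLRC5 was thus also called in that pair in such a fit. Per kilobase of transcript, B2M ranked first among the 9 genes in every line and NLRC5 ranked last in DOHH2, TMD8 and Toledo, at 1850 against 9.13 CPM per kb in DOHH2.

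**Figure D1:**
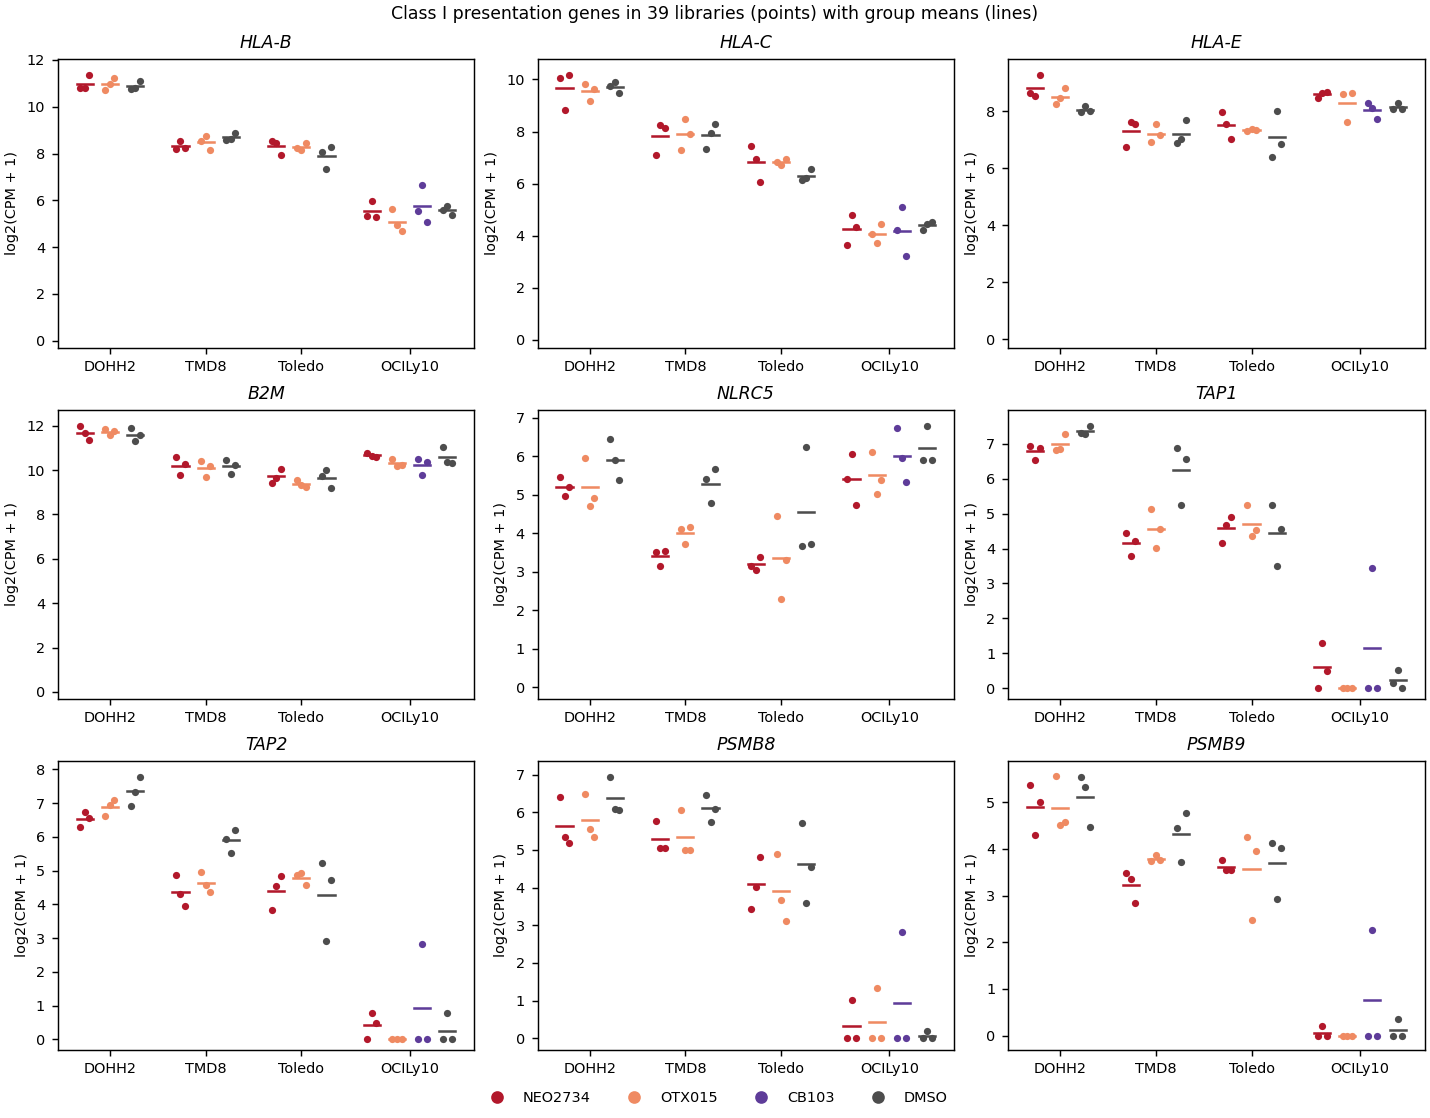
Levels of the 9 genes in all 39 libraries, as log2(CPM + 1) on the vertical axis, by line and treatment; points are libraries and short lines are group means of these log values. TAP1, TAP2, PSMB8 and PSMB9 sit at or near 0 in OCILy10, except in the library labelled CB103 replicate 2, where TAP1 reaches 9.89 CPM, and NLRC5 lies between 7.32 and 10.7 CPM in the NEO2734 libraries of TMD8 and Toledo.

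Each pair of untreated lines was compared in 1 fit over all 39 libraries (edgeR quasi-likelihood test, Benjamini-Hochberg adjustment over all genes tested, called below 0.05). DOHH2 against OCILy10 gave 7 called members, all higher in DOHH2, where 30.1% of all genes were called. HLA-B was 5.34 ± 0.37 higher on the log2 scale in that pair (SE, adjusted p = 8.16e-11), and HLA-E and NLRC5 were the members not called. DOHH2 against Toledo gave 5 of 9, all higher in DOHH2 (23.5% of all genes), and these were HLA-B, HLA-C, B2M, TAP1 and TAP2. DOHH2 against TMD8 gave 3 of 9, HLA-B, HLA-C and B2M, all higher in DOHH2 (28.5% of all genes). OCILy10 against TMD8 gave 7 of 9 (20.8% of all genes), with HLA-E higher by 0.92 ± 0.33 (adjusted p = 0.0464) and 6 members lower in OCILy10. OCILy10 against Toledo likewise gave 7 of 9 (15.9% of all genes), with B2M higher by 0.92 ± 0.27 (adjusted p = 0.0162) and the 6 members lower there again lower in OCILy10. TMD8 against Toledo gave 1 of 9 (24.9% of all genes), HLA-C, higher by 1.61 ± 0.42 in TMD8 (adjusted p = 0.00454), a call lost with the replicate number as a block, whose numbers do not pair the Toledo libraries (0.78, adjusted p = 0.215). The HLA-E call in OCILy10 against TMD8 was lost without any 1 of 5 of the 6 libraries, all but TMD8 DMSO replicate 3 (0.77 to 1.21 over the 6). The B2M call in OCILy10 against Toledo was lost without OCILy10 DMSO replicate 1, Toledo DMSO replicate 1 or Toledo DMSO replicate 3 (0.71 to 1.12 over the 6). Without the libraries that hold another line's genes, 2 members were called in TMD8 against Toledo, HLA-C and NLRC5. These are levels in bulk RNA, in which fewer cells of a type and less RNA per cell cannot be told apart.

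TAP1, TAP2, PSMB8 and PSMB9 were next to absent from OCILy10. TAP1 stood at 0.107, 0.432 and 0 CPM in the OCILy10 DMSO libraries, while the DMSO libraries of the other lines held 159, 154 and 182 CPM in DOHH2, 117, 37.1 and 94.7 CPM in TMD8 and 36.9, 10.4 and 22.5 CPM in Toledo. The lowest of these libraries, at 10.4 CPM, is the library labelled Toledo DMSO replicate 2, which holds the OCILy10 genes. Over the 11 OCILy10 libraries other than CB103 replicate 2, 15 reads of TAP1, 11 of TAP2, 10 of PSMB8 and 3 of PSMB9 were counted in all. TAP1 was at 0 in 7 of these 11 libraries, TAP2 and PSMB8 in 8 each and PSMB9 in 9. No fold change of these 4 genes within OCILy10 is given, since its groups are at or near the limit of counting.

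These 4 genes belonged to a longer run of neighbours that were next to absent from OCILy10. Of 90 genes in the class I and class II region of chromosome 6 that stood at 5 CPM or more in untreated DOHH2, TMD8 and Toledo, 11 stood in untreated OCILy10 below 5% of the lowest other line. Of these, 10 followed each other without a break, in the order HLA-DRA, HLA-DRB5, HLA-DRB6, HLA-DRB1, HLA-DQA1, TAP2, PSMB8, PSMB8-AS1, PSMB9 and TAP1, from 32439842 to 32859585. HLA-DRA, the alpha chain of the class II molecule HLA-DR, averaged 2.61 CPM in OCILy10, against 1510 CPM in DOHH2, 677 CPM in TMD8 and 883 CPM in Toledo. The expressed neighbours on both sides were present: GPSM3 stood at 57.2% and HLA-DMB at 262% of the lowest other line. TAPBP, which encodes the tapasin that tethers class I to the transporter and lies further along, averaged 78.7 CPM in OCILy10, against 173 CPM in DOHH2, 143 CPM in TMD8 and 61.6 CPM in Toledo. HLA-DRB5 and HLA-DRB6 are present on some haplotypes only. The window and the run were described after their values were seen, and no DNA was measured.

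**Figure D2:**
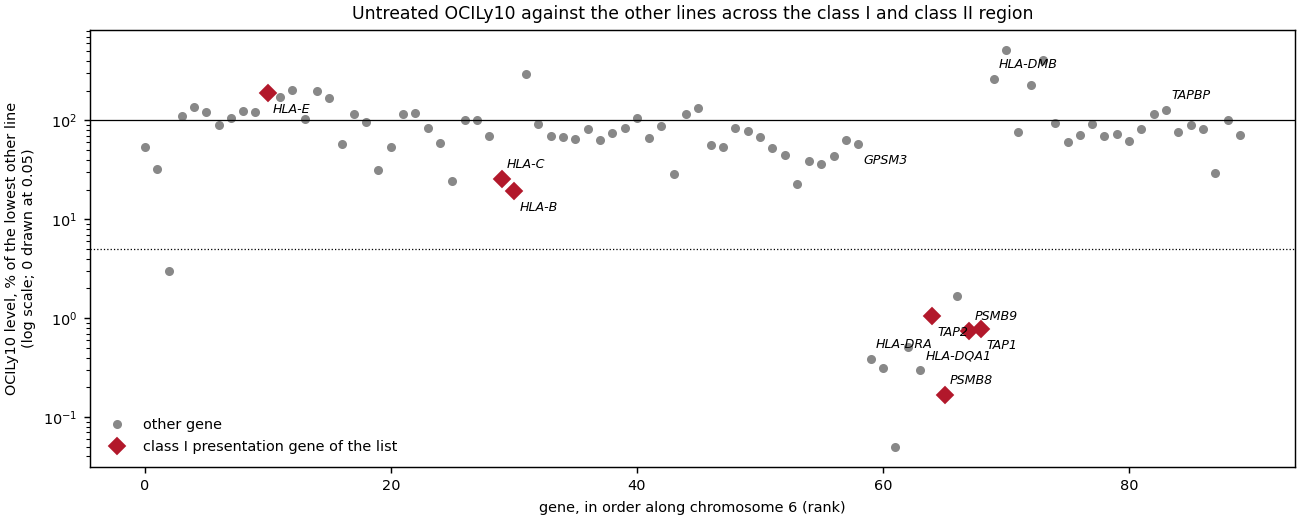
Mean level in untreated OCILy10 as a percentage of the lowest mean of DOHH2, TMD8 and Toledo (vertical axis, log scale, with 0 drawn at 0.05), for 90 genes in their order along chromosome 6 (horizontal axis, rank). The run HLA-DRA to TAP1 sits below the dotted line at 5%, HLA-B and HLA-C sit at 19.2% and 25.8%, and HLA-E sits above the solid line at 100%.

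With NEO2734, NLRC5 was the 1 member called in the mean over the 4 lines, and it was lower. NLRC5 stood at 10.5, 7.87 and 10.7 CPM in TMD8 cells with NEO2734, at 16.4, 12.2 and 16.8 CPM with OTX015 and at 41.4, 26.6 and 49.98 CPM with DMSO. In TMD8 the libraries of both compounds lay below every DMSO library, as they did for 10.6% of all genes with NEO2734 and for 7.9% with OTX015. In Toledo it stood at 7.95, 7.32 and 9.47 CPM with NEO2734, at 20.7, 3.92 and 8.95 CPM with OTX015 and at 11.7, 74.6 and 12.3 CPM with DMSO. The 74.6 CPM belongs to the library labelled Toledo DMSO replicate 2, and the other DMSO libraries of Toledo lay slightly above the NEO2734 ones, whose groups were apart and lower for 6.57% of all genes. In DOHH2 it stood at 43.2, 30.5 and 35.5 CPM with NEO2734, at 61.0, 25.1 and 29.4 CPM with OTX015 and at 87.3, 58.8 and 40.7 CPM with DMSO. In OCILy10 it stood at 41.6, 65.4 and 25.7 CPM with NEO2734, at 67.7, 31.7 and 41.0 CPM with OTX015 and at 59.4, 110 and 59.2 CPM with DMSO. The groups of DOHH2 and of OCILy10 overlapped for both compounds, with lower means in the treated cells.

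Averaged over the lines, NLRC5 fell to 0.380 times its DMSO level with NEO2734 (log2 -1.40 ± 0.28 SE, adjusted p = 0.00052) and to 0.480 times with OTX015 (log2 -1.06 ± 0.28, adjusted p = 0.0106). Of all genes tested, 11.2% were called lower and 9.29% higher with NEO2734, and 6.06% lower and 5.53% higher with OTX015. Without the libraries above 10% of another line's genes, Toledo DMSO replicate 2 and OCILy10 CB103 replicate 2, the NEO2734 value was -1.02 (adjusted p = 0.00284), and the OTX015 value was -0.69 and no longer called (adjusted p = 0.0652). In the deep libraries alone it was -1.01 with NEO2734 and -0.34 with OTX015, and in the shallow ones alone -1.62 and -1.45. Most groups hold a single deep library, so calls are not compared between these 2 sets. The shallow set includes the library labelled Toledo DMSO replicate 2, and the deep set does not. In Toledo the difference in log2(CPM + 1) was -1.88 with NEO2734 and -2.18 with OTX015 in the shallow libraries. In the deep ones it was -0.28 and 0.78. Within single lines 1 call was made, NLRC5 with NEO2734 in Toledo (log2 -2.00 ± 0.58, adjusted p = 0.0372, where 4.2% of all genes were called lower). Without the library labelled Toledo DMSO replicate 2 it was -0.51 (adjusted p = 0.927). The call was also lost without any 1 of the 3 NEO2734 libraries of Toledo, where the value was -1.96, -1.92 and -2.13 without replicates 1, 2 and 3. The OTX015 mean over the 4 lines was likewise not called without Toledo DMSO replicate 2 alone (-0.69, adjusted p = 0.0601). The TMD8 value with NEO2734 was -2.02 ± 0.58 (adjusted p = 0.0663). It was called with the replicate number as a block (-1.99, adjusted p = 0.0341) and without the 2 libraries named above (-2.02, adjusted p = 0.016). A test of whether the response differed between the lines called none of the 9 members for either compound by edgeR, and of all genes 0.0156% with NEO2734 and 0% with OTX015 (adjusted p = 1 for each, 0 at an unadjusted p below 0.05).

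**Figure D3:**
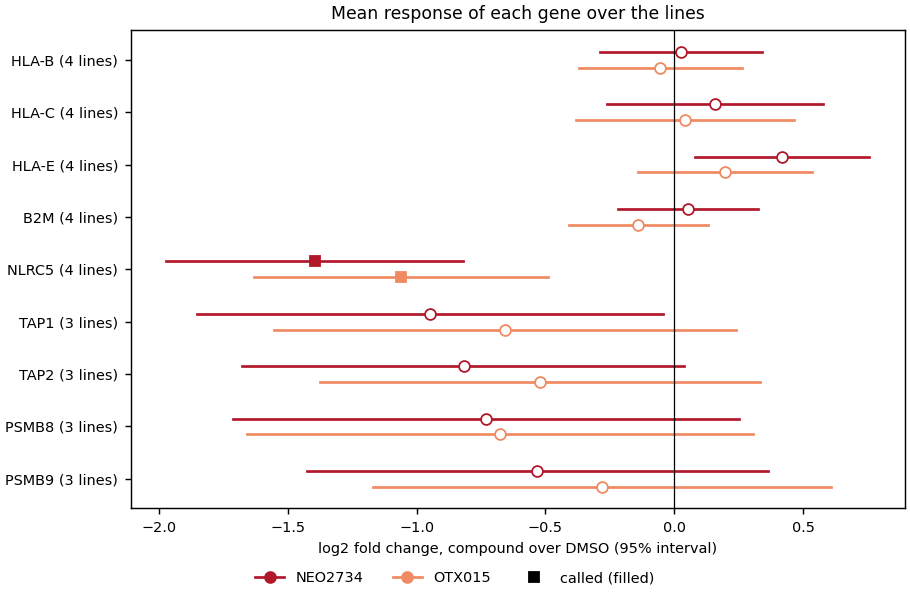
Mean log2 fold change of each gene over DMSO with its 95% interval (horizontal axis), over 4 lines or, for the genes near 0 in OCILy10, over the other 3; filled squares are called at an adjusted p below 0.05. NLRC5 is the gene called for both compounds (-1.40 with NEO2734 and -1.06 with OTX015), and the intervals of HLA-B, HLA-C and B2M include 0.

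The peptide transporter genes were compared over DOHH2, TMD8 and Toledo, a mean added after the values of OCILy10 were seen. TAP1 stood at 20.8, 12.7 and 17.6 CPM in TMD8 with NEO2734, at 34.2, 15.1 and 22.6 CPM with OTX015 and at 117, 37.1 and 94.7 CPM with DMSO. All treated libraries of TMD8 lay below all DMSO libraries, as for 10.6% of all genes with NEO2734 and for 7.9% with OTX015. In DOHH2 it stood at 122, 92.1 and 116 CPM with NEO2734, at 112, 114 and 155 CPM with OTX015 and at 159, 154 and 182 CPM with DMSO. NEO2734 libraries lay below the DMSO ones in DOHH2, as for 9.73% of all genes, whereas the 1 OTX015 library at 155 CPM overlapped the DMSO ones. In Toledo TAP1 stood at 16.8, 24.8 and 29.04 CPM with NEO2734, at 37.0, 19.6 and 22.2 CPM with OTX015 and at 36.9, 10.4 and 22.5 CPM with DMSO, and the groups overlapped. The 10.4 CPM belongs to the library labelled Toledo DMSO replicate 2. Without it the Toledo DMSO mean was 29.7 CPM (n = 2), against means of 23.5 CPM with NEO2734 and 26.3 CPM with OTX015. Over the 3 lines the TAP1 value was -0.95 ± 0.44 with NEO2734 (SE, adjusted p = 0.16) and -0.66 ± 0.44 with OTX015 (adjusted p = 0.471), neither of them called. In these means over 3 lines 15.8% of all genes were called with NEO2734 and 7.37% with OTX015, and NLRC5 was the 1 member called in each (-1.60, adjusted p = 0.000975, and -1.18, adjusted p = 0.02).

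TAP2, the partner of TAP1 in the transporter, stood at 28.2, 18.8 and 14.5 CPM in TMD8 with NEO2734, at 29.8, 23.0 and 19.5 CPM with OTX015 and at 60.6, 44.9 and 73.1 CPM with DMSO, with all treated libraries below all DMSO ones (10.6% of all genes with NEO2734 and 7.9% with OTX015). In DOHH2 it stood at 77.9, 106 and 93.9 CPM with NEO2734, at 96.5, 121 and 136 CPM with OTX015 and at 120, 161 and 219 CPM with DMSO, where NEO2734 and DMSO were again apart. In Toledo it stood at 13.1, 22.5 and 27.5 CPM with NEO2734, at 28.1, 29.4 and 23.0 CPM with OTX015 and at 36.3, 6.56 and 25.6 CPM with DMSO, and the groups overlapped. The 6.56 CPM belongs to the library labelled Toledo DMSO replicate 2. Over the 3 lines its value was -0.82 ± 0.42 with NEO2734 (adjusted p = 0.213) and -0.52 ± 0.42 with OTX015 (adjusted p = 0.586). Groups apart and lower in at least 2 of the 3 lines, as for TAP1 and TAP2 with NEO2734, were found for 6.25% of all genes. In TMD8 alone the TAP1 value was -2.28 ± 0.79 with NEO2734 (adjusted p = 0.16) and -1.77 ± 0.77 with OTX015 (adjusted p = 0.59), and the TAP2 value was -1.51 ± 0.73 with NEO2734 (adjusted p = 0.414) and -1.30 ± 0.73 with OTX015 (adjusted p = 0.854). With the replicate number as a block, TAP1 was called in TMD8 with NEO2734 (-2.20, adjusted p = 0.00105) and with OTX015 (-1.74, adjusted p = 0.0134). TAP2 was then called there with NEO2734 (-1.53, adjusted p = 0.0335) and not with OTX015 (-1.32, adjusted p = 0.132). Without the libraries labelled Toledo DMSO replicate 2 and OCILy10 CB103 replicate 2, TAP1 and TAP2 were called over the 3 lines with NEO2734 (-1.07, adjusted p = 0.0157, and -0.97, adjusted p = 0.0204). In the deep libraries alone, a single library in each group of these lines, the values were -1.10 for TAP1 and -0.73 for TAP2.

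**Figure D4:**
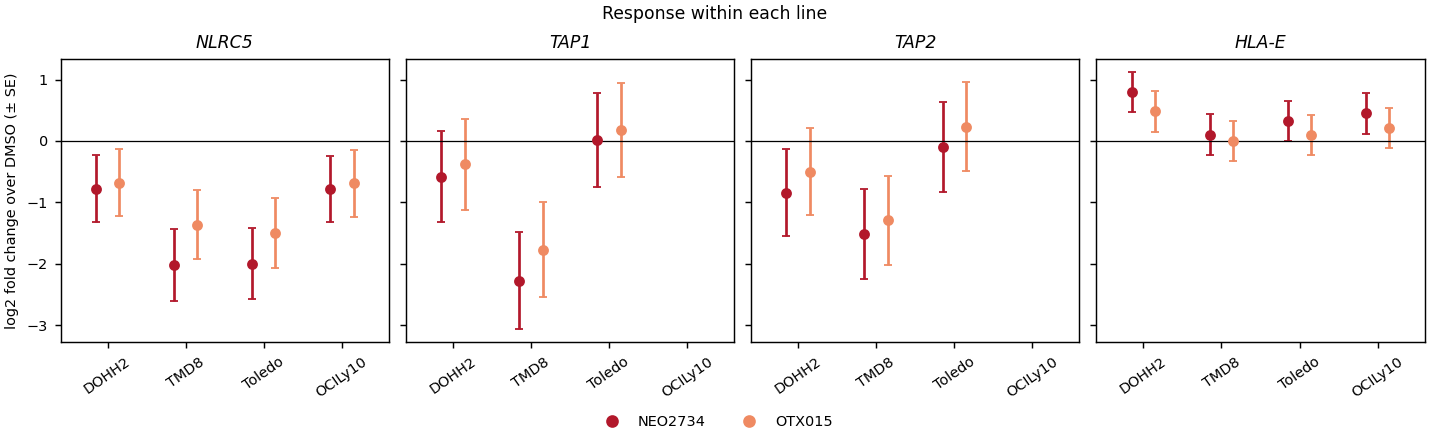
Log2 fold change over DMSO with its SE (vertical axis) of NLRC5, TAP1, TAP2 and HLA-E within each line, for NEO2734 and OTX015; TAP1 and TAP2 have no value in OCILy10. TAP1 is lowest in TMD8 (-2.28 with NEO2734), and HLA-E is highest in DOHH2 (0.80 with NEO2734). TAP1 lies near 0 in Toledo, where the DMSO group includes the library that holds OCILy10 genes.

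The immunoproteasome subunits were lower in the means over DOHH2, TMD8 and Toledo without passing the test. PSMB8 stood at 53.8, 32.4 and 32.1 CPM in TMD8 with NEO2734, at 65.1, 30.8 and 31.1 CPM with OTX015 and at 86.9, 52.6 and 67.3 CPM with DMSO, with 1 treated library in each group overlapping the DMSO ones. Set against the DMSO library of the same replicate number, PSMB8 was lower in 3 of 3 pairs for each compound in TMD8 and in DOHH2. In these lines the numbers were read as pairing the libraries, and they coincide with depth class. How many of all genes were lower in every pair was not counted. The PSMB8 mean over the 3 lines was -0.73 ± 0.48 with NEO2734 (SE, adjusted p = 0.37) and -0.68 ± 0.48 with OTX015 (adjusted p = 0.508). PSMB9 stood at 10.1, 9.18 and 6.12 CPM in TMD8 with NEO2734, at 12.3, 13.6 and 12.6 CPM with OTX015 and at 20.7, 12.2 and 26.4 CPM with DMSO. Its NEO2734 libraries lay below the DMSO ones in TMD8, as for 10.6% of all genes, and its means over the 3 lines were -0.53 ± 0.43 (adjusted p = 0.513) and -0.28 ± 0.43 (adjusted p = 0.875). The 95% intervals with NEO2734, -1.71 to 0.25 for PSMB8 and -1.43 to 0.36 for PSMB9, hold both 0 and the value of TAP1.

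HLA-B, HLA-C and B2M were not called with either compound. HLA-B stood at 290, 373 and 304 CPM in TMD8 with NEO2734, at 374, 433 and 281 CPM with OTX015 and at 382, 395 and 470 CPM with DMSO. The NEO2734 libraries of TMD8 lay below the DMSO ones, as for 10.6% of all genes (log2 -0.37 ± 0.31 SE, adjusted p = 0.799), and those of the other lines did not. HLA-C stood at 174, 123 and 65.6 CPM in Toledo with NEO2734, at 112, 105 and 122 CPM with OTX015 and at 69.0, 73.5 and 93.1 CPM with DMSO. There the OTX015 libraries lay above the DMSO ones, as for 5.58% of all genes (log2 0.53 ± 0.41, adjusted p = 0.71). B2M stood at 1550, 866 and 1220 CPM in TMD8 with NEO2734, at 1375, 836 and 1161 CPM with OTX015 and at 1396, 909 and 1216 CPM with DMSO, and its groups overlapped in every line for both compounds. Averaged over the 4 lines, HLA-B was at 0.03 ± 0.15 with NEO2734 (log2 over DMSO, SE, adjusted p = 0.977; 95% interval -0.29 to 0.34) and at -0.05 ± 0.15 with OTX015 (adjusted p = 0.947; interval -0.37 to 0.26). HLA-C was at 0.16 ± 0.20 with NEO2734 (adjusted p = 0.709) and at 0.04 ± 0.20 with OTX015 (adjusted p = 0.997). B2M was at 0.05 ± 0.13 with NEO2734 (adjusted p = 0.89; interval -0.22 to 0.32) and at -0.14 ± 0.13 with OTX015 (adjusted p = 0.614; interval -0.41 to 0.13).

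HLA-E libraries with NEO2734 lay above the DMSO ones in DOHH2 and OCILy10. In DOHH2 it stood at 395, 368 and 620 CPM with NEO2734, at 307, 353 and 452 CPM with OTX015 and at 248.7, 290 and 257 CPM with DMSO. All treated libraries of DOHH2 lay above all DMSO ones, and the highest, at 620 CPM, is the library labelled DOHH2 NEO2734 replicate 3, without which the other NEO2734 libraries still lay above the DMSO ones. In OCILy10 HLA-E stood at 356, 401 and 409 CPM with NEO2734, at 391, 198 and 400 CPM with OTX015 and at 271, 312 and 271 CPM with DMSO, and the NEO2734 libraries were again apart from the DMSO ones. Groups apart and higher with NEO2734 were found for 8.64% of all genes in DOHH2 and 9.77% in OCILy10, and with OTX015 for 7.01% in DOHH2, and the part of the lower T cell marker sum of OCILy10 in this was not tested. In TMD8 the groups overlapped. In Toledo HLA-E stood at 252, 189 and 131 CPM with NEO2734, at 157, 167 and 163 CPM with OTX015 and at 82.6, 256 and 115 CPM with DMSO. The 256 CPM belongs to the library labelled Toledo DMSO replicate 2, and with it the groups overlapped. Every library with NEO2734 or OTX015 lay above the other DMSO libraries of Toledo. How many of all genes did so was not counted. The mean over the 4 lines was 0.42 ± 0.16 with NEO2734 (fold 1.34, adjusted p = 0.071) and 0.20 ± 0.16 with OTX015 (adjusted p = 0.543), so neither was called. Without the 3 libraries that hold more than 5% of another line's genes the NEO2734 value was 0.51 and called (adjusted p = 0.0145).

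NEO2734 and OTX015 were compared with each other directly, to see whether blocking CBP/p300 in addition to BET moved these genes further. Time was matched at 6 h, and whether the doses match is not known, so the values stand side by side for these samples alone. None of the 9 members was called by edgeR in the mean over the lines (0 at an unadjusted p below 0.05, adjusted p = 1 each, over 12814 genes of which 4, 0.0312%, were called). NLRC5 was at -0.34 ± 0.28 with NEO2734 over OTX015, with a 95% interval of -0.91 to 0.24. B2M was 0.19 ± 0.13 (interval -0.08 to 0.46), HLA-E 0.22 ± 0.16 (interval -0.12 to 0.56), HLA-B 0.08 ± 0.15 (interval -0.23 to 0.40) and HLA-C 0.11 ± 0.20 (interval -0.31 to 0.54) with NEO2734 over OTX015. Over DOHH2, TMD8 and Toledo, TAP1 was -0.29 ± 0.44 (interval -1.19 to 0.61), TAP2 -0.30 ± 0.42, PSMB8 -0.06 ± 0.48 and PSMB9 -0.25 ± 0.43. In single lines 3 of the comparisons had groups apart. In TMD8 the NEO2734 libraries lay below the OTX015 ones for NLRC5 (7.87 to 10.7 against 12.2 to 16.8 CPM) and for PSMB9 (6.12 to 10.1 against 12.3 to 13.6 CPM), as for 2.29% of all genes. In OCILy10 they lay above the OTX015 ones for B2M (1552 to 1732 against 1171 to 1454 CPM), as for 2.72% of all genes. None of the members was called in any single line (edgeR, adjusted p = 1 each, 0 at an unadjusted p below 0.05).

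CB103 gave no called member in OCILy10 (edgeR, 0 of 12814 genes called, 0%, and 273 genes at an unadjusted p below 0.05). Of the members, 4 had an unadjusted p below 0.05, TAP1, TAP2, PSMB8 and PSMB9, whose CB103 reads all lie in the library labelled OCILy10 CB103 replicate 2. NLRC5 stood at 105, 61.6 and 39.6 CPM with CB103 and at 59.4, 110 and 59.2 CPM with DMSO, and the groups overlapped (log2 -0.14 ± 0.54). B2M stood at 1445, 875 and 1336 CPM with CB103 and at 2096, 1330 and 1291 CPM with DMSO (log2 -0.37 ± 0.26). HLA-E stood at 316, 278 and 213 CPM with CB103 and at 271, 312 and 271 CPM with DMSO. HLA-B stood at 45.2, 98.5 and 33.2 CPM with CB103 and at 46.7, 53.7 and 40.7 CPM with DMSO. TAP1 stood at 0, 9.89 and 0 CPM with CB103. The 98.5 CPM of HLA-B and the 9.89 CPM of TAP1 belong to the library labelled OCILy10 CB103 replicate 2, which holds the Toledo genes at 30.9%, and this library carried 26 reads of TAP1 where the 11 other OCILy10 libraries carried 15 in all. Without it the HLA-B value was -0.25, against 0.33 with it. In the other deposited table, in which the column of CB103 replicate 1 differs, the B2M value was 0.34 and the HLA-E value 0.52, against -0.37 and -0.08 in the first.

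Other genes of the pathway were read from lists of its regulators, peptide trimming, peptide loading, other heavy chains and proteasome subunits. Among 10 regulators of class I genes, 4 were called lower and 1 higher with NEO2734, and 3 lower and 1 higher with OTX015, averaged over the 4 lines, where 20.5% of all genes were called with NEO2734 and 11.6% with OTX015. The median of the list was -0.32 with NEO2734, against -0.02 over all genes tested, and -0.19 with OTX015, against -0.03. IRF2, an interferon regulatory factor that binds interferon response elements, fell to 0.414 times its DMSO level with NEO2734 (log2 -1.27 ± 0.10 SE, adjusted p = 5.91e-10) and to 0.581 times with OTX015 (log2 -0.78 ± 0.10, adjusted p = 8.66e-06). Its libraries with either compound lay below the DMSO ones in all 4 lines, and in TMD8 it averaged 26.8 CPM with NEO2734, 40.7 CPM with OTX015 and 82.3 CPM with DMSO. Between the compounds the IRF2 mean over the lines differed by -0.49 (NEO2734 over OTX015), which was not called (adjusted p = 0.0874). Groups apart and lower in 4 lines were found for 0.929% of all genes with NEO2734 and 0.367% with OTX015. RFX5, a subunit of the RFX complex that NLRC5 works through, fell by 0.68 ± 0.11 (adjusted p = 2.47e-05) with NEO2734 and by 0.53 ± 0.11 (adjusted p = 0.00123) with OTX015 on the log2 scale.

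IRF1, an activator of class I and immunoproteasome genes, fell with NEO2734 (log2 -0.46 ± 0.14, adjusted p = 0.0177) and stood at -0.27 ± 0.14 with OTX015 (adjusted p = 0.243). CREB1, a factor bound to the X2 type site, rose by 0.30 ± 0.11 with NEO2734 (adjusted p = 0.0453) and by 0.38 ± 0.11 with OTX015 (adjusted p = 0.0193) on the log2 scale. The NEO2734 call was lost without any 1 of 15 libraries (0.26 to 0.35 over the 24 left out in turn), and the OTX015 call without DOHH2 OTX015 replicate 3 (0.33, adjusted p = 0.0509).

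Both trimming enzymes of the endoplasmic reticulum, which cut peptides to the length that class I holds, fell in the mean over the lines. ERAP1 fell by 0.52 ± 0.11 with NEO2734 (adjusted p = 0.000551) and by 0.42 ± 0.11 with OTX015 (adjusted p = 0.00822) on the log2 scale. ERAP2 fell by 0.70 ± 0.14 with NEO2734 (adjusted p = 0.000615) and by 0.68 ± 0.14 with OTX015 (adjusted p = 0.00214). The deep libraries alone leave a single library in most groups, so whether these calls hold there cannot be told. With OTX015 the median of ERAP1 and ERAP2 was -1.13 in TMD8, -0.80 in Toledo and -0.30 in OCILy10. It was 0.025 in DOHH2, where both values were positive. With NEO2734 both were negative in every line. The test of whether the response differed between the lines called neither gene for either compound. Its unadjusted p was below 0.05 for both genes with OTX015 and for 1 with NEO2734. None of the 5 peptide loading genes, the 3 other heavy chains or the 3 further immunoproteasome and PA28 genes was called with either compound by edgeR. Among these 11 genes 2 with NEO2734 and 1 with OTX015 had an unadjusted p below 0.05, as had 3930 and 3038 of all 12814 genes tested. Of the 11, TAPBP was at -0.41 (adjusted p = 0.0748) and TAPBPL, a tapasin relative, at -0.63 (adjusted p = 0.0892) with NEO2734. Of the 14 subunits of the constitutive proteasome core, 1 was called lower with NEO2734, PSMA3, and 2 with OTX015, PSMA3 and PSMB5. PSMB5, the catalytic subunit that PSMB8 replaces in the immunoproteasome, was at -0.45 ± 0.17 with NEO2734 (adjusted p = 0.0535) and at -0.54 ± 0.17 with OTX015 (adjusted p = 0.0323), a call lost without any 1 of 11 libraries (-0.64 to -0.46 over all libraries left out in turn). Its NEO2734 value was called with DESeq2, RLE scaling, the replicate number as a block, a deep or shallow term, the compared libraries only and the shallow libraries alone.

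**Figure D5:**
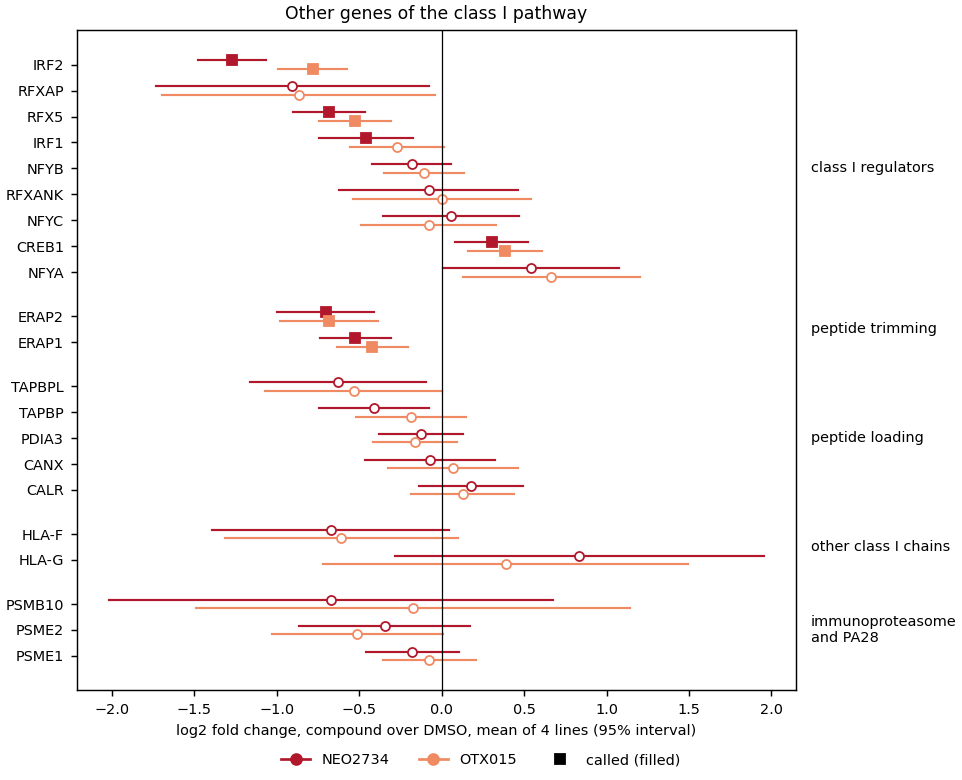
Mean log2 fold change over DMSO in 4 lines with its 95% interval (horizontal axis) for further genes of the class I pathway, grouped by list; filled squares are called at an adjusted p below 0.05. IRF2 (-1.27 with NEO2734, -0.78 with OTX015), RFX5, ERAP1 and ERAP2 lie below 0 for both compounds, and no loading gene is called.

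Genes with profiles most like the mean of the 9 members were named by Pearson's r among 10271 genes of at least 5 CPM. The members did not share a profile. Between members r ran from -0.384 (NLRC5 with PSMB8) to 0.998 (TAP1 with TAP2) over the 13 groups. Over the 9 differences it ran from -0.565 (HLA-C with PSMB8) to 0.973 (TAP1 with TAP2). Over the 13 groups, whose levels the lines dominate, these included TNFAIP2 (r = 0.983), CHURC1 (r = 0.981), C5orf15 (r = 0.980) and CD70 (r = 0.969). Over the 9 differences between a treated group and the DMSO group of its line they were TRIM21 (r = 0.969), MYD88 (r = 0.961), BMP8B (r = 0.957), HELZ2 (r = 0.956) and RIGI (r = 0.952). The differences within a line share their DMSO libraries, and each r describes these points alone. Without the 3 libraries that hold another line's genes, the r of the 4 genes named over the groups was 0.941 to 0.976. The r of the 5 genes named over the differences was then 0.857 to 0.927, and they ranked 16 to 71 among the genes compared.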

How the data were processed

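Per the labels, RNA was extracted with Trizol and made into libraries with an Illumina TruSeq kit. The authors deposited whole-number counts per gene, and STAR and edgeR are the tools, with hg38 as the build, per the submitters' processing notes. The sources used here name no counting program, annotation, strandedness or version. Of the 39 columns, 38 were equal in the 2 deposited count tables, and the table named raw was used. In the differing column, OCILy10 CB103 replicate 1, the other table held 5474462 counts in place of 11430777.

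Counts of 12814 genes passing edgeR's filterByExpr were scaled by TMM and fitted in 1 quasi-likelihood model with a coefficient per group (edgeR 4.0.16, R 4.3.3, 26 residual degrees of freedom), with Benjamini-Hochberg adjustment over all genes tested and calls below 0.05. Intervals are the SE times the t quantile, and cover the spread between libraries. Means over lines are geometric. Groups were called apart when no library of one lay within the range of the other. Alternatives were DESeq2 1.42.0, limma-voom (limma 3.58.1), other scalings, no filter, a replicate block, depth classes and libraries left out. The fits were tested on simulated counts. Replicate numbers were read as pairing where every correlation of same-numbered deviations was over 0.1, which held in DOHH2 (0.25 to 0.915) and TMD8 (0.301 to 0.91) and not in Toledo or, for OTX015 and CB103, OCILy10. The numbers coincide with depth class in these lines, and where the pairing comes from is not in the labels.

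The 9 members were read in every comparison, of the pathway lists every measured gene could be named, and of the constitutive proteasome core PSMB5 to PSMB7 and up to 4 called genes. The members and lists were chosen with earlier results of these data known. Genes private to a line stood above 10 CPM at its median and below 1 CPM at those of the others. Calls and fits of PSMB8, PSMB9, TAP1 and TAP2 that include OCILy10 carry no fold change here. Some genes of the lists count in the totals and are not reported here by name.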

Additional observations from a re-analysis of the deposited data

How the results depend on the processing

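The count of members called with NEO2734 over the 4 lines, 1, was 2 with the replicate block, with a deep or shallow term and without the 2 or the 3 libraries that hold another line's genes (HLA-E beside NLRC5), and 0 in the deep libraries alone. Over 3 lines it was 1, and it was 3 with the replicate block (NLRC5; TAP1 -0.87, adjusted p = 0.00453; TAP2 -0.78, adjusted p = 0.023), 2 in the compared libraries only, 4 without the 2 or the 3 libraries and 0 in the deep libraries alone. With OTX015 the count of 1 over 4 lines, NLRC5, was 0 in the deep libraries alone. Without the 2 libraries NLRC5 was no longer called (-0.69, adjusted p = 0.0652, edgeR), so an unchanged count there does not stand for NLRC5. Over 3 lines the OTX015 count of 1 was 2 with the replicate block (TAP1 -0.63, adjusted p = 0.0472) and 0 with limma-voom, in the compared libraries only, in the deep ones alone and without the 2 or the 3 libraries. In TMD8 with NEO2734 the count of 0 was 1 with DESeq2 or limma-voom, 3 with the replicate block or in the compared libraries only, and 2 with the depth term or without the 2 or the 3 libraries. In TMD8 with OTX015 the count of 0 was 1 with the block, and in Toledo with OTX015 it was 1 with the depth term. In Toledo with NEO2734 the count of 1 was 0 with limma-voom, no filter, the block, the compared libraries only and without the 2 or the 3 libraries. Between DMSO groups, TMD8 against Toledo (1) gave 2 with DESeq2, RLE scaling or without the 2 or the 3 libraries, 3 with the block or the depth term and 4 with limma-voom. With the block the 3 were B2M, TAP1 and TAP2, and HLA-C was 0.78 and not called (adjusted p = 0.215). Without the 2 or the 3 libraries the 2 were HLA-C and NLRC5. DOHH2 against TMD8 (3) gave 5 with limma-voom, the block, the depth term or without the 2 or the 3 libraries, and DOHH2 against Toledo (5) gave 9 with limma-voom. The 4 regulators called with OTX015 were 0 in the deep libraries alone. HLA-E with NEO2734 over the 4 lines was 0.42 with the block (adjusted p = 0.0383), and PSMB5 -0.45 (adjusted p = 0.000937). The correlations of same-numbered deviations went down to -0.764 in Toledo, so the averaged comparisons are not paired throughout. The deep libraries alone leave a single library in most groups, so counts of 0 there cannot tell a lost effect from lost power. The cause of the shifts in these counts was not tested.

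Some values changed sign. With CB103, HLA-C (0.004) was -0.03 with DESeq2, -0.031 with RLE scaling, -0.033 with no filter, -0.027 in the compared libraries only, -0.074 with limma-voom, -0.067 with the depth term, -0.007 with the block, -0.54 without the 2 libraries, -0.55 without the 3 and -0.11 in the other table. HLA-B was -0.25 and -0.26 without the 2 and the 3 libraries, NLRC5 0.009 with the depth term, and in the other table HLA-E was 0.52 and B2M 0.34. With NEO2734 over 4 lines HLA-B was -0.14 and HLA-C -0.04 in the deep libraries alone, and HLA-B -0.03 and -0.077 without the 2 and the 3 libraries. With OTX015 HLA-C was -0.026 in the shallow libraries alone. Between NEO2734 and OTX015 the deep libraries alone gave -0.14 for HLA-B and HLA-C and -0.042 for HLA-E, and PSMB8 over 3 lines was 0.04 with the block, 0.039 without the 3 libraries and 0.086 in the shallow libraries alone.

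Leaving out 1 library at a time, the count of members called ran from 1 to 2 with NEO2734 over 4 or 3 lines, from 0 to 1 with OTX015 over 4 or 3 lines and in Toledo with either compound, and from 0 to 2 with CB103. It ran from 3 to 4 in DOHH2 against TMD8, 5 to 7 in DOHH2 against Toledo, 6 to 7 in OCILy10 against TMD8, 6 to 9 in OCILy10 against Toledo and 1 to 2 in TMD8 against Toledo, and the regulators from 4 to 6 with NEO2734 and 3 to 5 with OTX015. NLRC5 with NEO2734 in Toledo ran from -2.46 to -0.51, and with OTX015 over 4 lines from -1.27 to -0.69. Sign changes arose in HLA-B (-0.039 to 0.078) and B2M (-0.002 to 0.13) with NEO2734, HLA-C with OTX015 (-0.043 to 0.11), PSMB8 between the compounds (-0.22 to 0.21) and, with CB103, HLA-B (-0.25 to 0.61), HLA-C (-0.54 to 0.32), HLA-E (-0.22 to 0.067) and NLRC5 (-0.59 to 0.23). Depth limits the shallow libraries most, in which a gene at 10 CPM has few counts.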
